A study of Populus tomentosa with 12 samples.

Results

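In shoots of Populus tomentosa (Chinese white poplar) grown without iron, 29 genes were lower than in shoots supplied with iron, while their levels in roots overlapped between the iron supplies. They were chosen from 42950 listed gene IDs, of which 20269 passed edgeR's filterByExpr, a filter on low counts, in both tissues. A member had a mean shoot level of 5 to under 1000 CPM (counts scaled to a library total of 1e+06, with TMM factors computed within shoots). Its lowest Fe-sufficient shoot value was at least 1.5 times its highest Fe-deficient shoot value, and its Fe groups overlapped in CPM in roots. The rule allowed at most 300 members, and this limit was not reached. Since measured values of both tissues chose the members, their shoot falls and their overlap in roots are described here and are not evidence of a response.

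The plantlets, at the seedling stage, were propagated in vitro on agar with 1.5% sucrose and 1 mg/L of the auxin NAA. Plants with shoots of about 10 cm went into a solution of the same woody plant medium with iron at 100 µM, the Fe-sufficient supply, or at 0 µM, the Fe-deficient supply. RNA of roots and shoots was sequenced. The 12 libraries form 4 groups of 3: Fe-sufficient roots, Fe-deficient roots, Fe-sufficient shoots and Fe-deficient shoots. Replicates are called biological in the labels, which do not say which plants or shoot parts went into each, whether all plants were of 1 clone, or how long iron was withheld. Shoot libraries are titled CK where the group label says Fe-sufficient and WT where it says Fe-deficient, and the titles are not explained. The direction of every shoot comparison rests on the group label. No marker genes could be used to check the tissue labels, because the files do not pair the gene IDs with names.

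Iron is a component of iron-sulfur clusters and of heme, cofactors of proteins of photosynthetic electron transport, and it is needed for chlorophyll synthesis. Shoots receive it from the roots through the xylem, and leaves that form without enough of it turn pale. Roots of broadleaved plants take iron up after acidifying the soil and reducing ferric iron. None of the 42950 IDs matched the reference table of P. tomentosa genes (assembly PTv2, 60139 genes), so no role or sequence is given for any member. The member IDs begin with Potri, and the sources used here do not say which species' gene models these are. The 29 members carry 14 different ID prefixes, and the nearest members in the listed order lie 35 rows apart. Whether members have near-identical copies or overlapping neighbours that share reads was not analysed here.

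Between 8663523 and 10886552 reads per library were counted in genes in roots, and between 5360670 and 6149779 in shoots. Reads in no gene made up 1.25% to 1.41% of the reads counted in a gene, in no gene or as ambiguous in roots, and 49.5% to 50.0% in shoots. Of all reads listed, 58.3% to 64.0% in roots and 72.6% to 73.1% in shoots were given to no gene for any reason. Fe-sufficient shoot replicate 2 stood apart in shoots: its score on principal component 1, which held 32.6% of the variance, was -62.4, against 5.54 to 19.4 for the other shoots. Shoots with Fe had TMM factors of 0.889 to 0.960, and those without Fe had factors of 1.06 to 1.10. Without these factors the median log2 fold change of all genes tested in shoots lay 0.20 higher, and 15 genes met the rule, all of them among the 29.

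The rule was met by few of the genes that could meet it. Among the 16625 genes with a mean shoot level inside the window, 12829 had overlapping Fe groups in roots, and 889 of those had all Fe-sufficient shoot values above all Fe-deficient ones. The ratio of 1.5 was reached by 82 genes at any level, of which 15 lay below and 19 above the level window. A further 19, inside the window, had root groups that did not overlap. Just inside the limit of 1.5 were members with ratios of 1.52, 1.52 and 1.53. Just outside it were genes with ratios of 1.50, 1.49 and 1.49, the first with a lowest Fe-sufficient value of 224 CPM and a highest Fe-deficient value of 150.0 CPM. Leaving out Fe-sufficient shoot replicate 2 relaxed the rule to 142 genes, which included all 29.

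The members differed widely in abundance. Mean shoot levels ran from 6.74 to 989 CPM with a median of 113 CPM, against a median of 22.3 CPM for genes in the window. A level of at least 100 CPM was reached by 16 of the 29 members (55.2%) and by 1605 of the 16625 window genes (9.65%). A gene with many reads has less counting error relative to its level. How far this bears on the members' abundance was not tested. The 88 genes that met the mirrored rule, raised in Fe-deficient shoots with overlapping roots, had a median of 16.2 CPM.

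**Figure D1:**
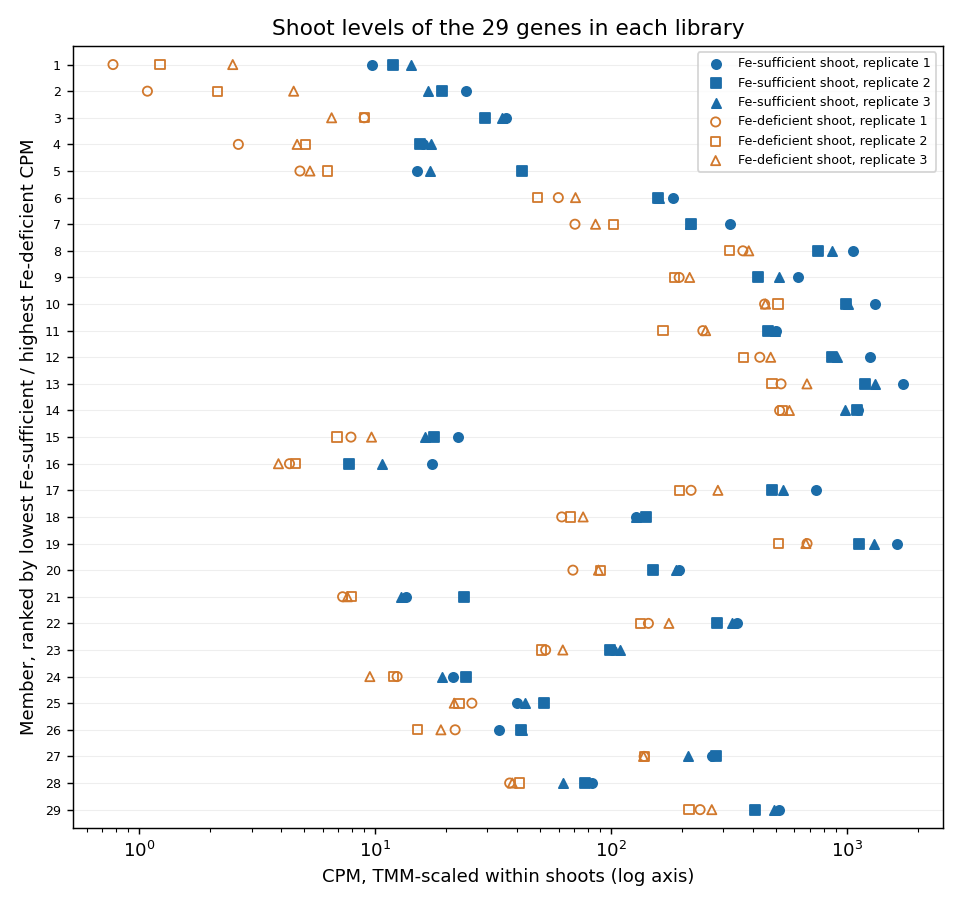
Shoot CPM (log axis, TMM-scaled within shoots) of each member in each of the 3 Fe-sufficient (filled) and 3 Fe-deficient (open) libraries, with 1 point per library and members ranked by the ratio used to choose them. The rank 1 member lies between 9.72 and 14.2 CPM with Fe and between 0.776 and 2.50 CPM without, and the gap narrows to a ratio of 1.52 at rank 29.

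The size of the fall in shoots varied among the members. In 5 members the mean level was 3.95 to 7.98 times lower without Fe, and in the other 24 it was 1.84 to 2.91 times lower, a division made after the values were seen. All 5 of the larger falls were in genes of low abundance, with means of 6.74 to 20.7 CPM, but falls under 3-fold were found at all levels, from 8.13 to 989 CPM. Between log2 mean shoot CPM and the log2 fold change, Pearson's r was 0.486 and Spearman's rho 0.255 across the 29 genes, a description of values the rule selected on. Over all 29 the median log2 fold change was -1.21, against -0.01 for all genes tested in shoots.

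Potri.016G098900 had the highest ratio of lowest Fe-sufficient to highest Fe-deficient value, 3.89. Its shoot level was 9.72, 11.9 and 14.2 CPM in Fe-sufficient replicates 1, 2 and 3, and 0.776, 1.23 and 2.50 CPM in the Fe-deficient ones. These values rest on 53, 66 and 73 reads with Fe and on 5, 8 and 16 reads without. The groups are far apart, and Fe-deficient replicate 3 is the highest of its group. In roots the gene had 4.57, 4.57 and 6.66 CPM with Fe and 4.11, 3.41 and 4.70 CPM without, so that the groups overlap.

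Second by ratio (3.71) was Potri.012G130600. Its shoot level was 24.2, 19.2 and 16.8 CPM with Fe and 1.09, 2.15 and 4.53 CPM without. Root levels were 12.8, 10.1 and 6.96 CPM with Fe and 5.16, 7.50 and 4.70 CPM without. The root groups overlap only because Fe-deficient replicate 2 (7.50 CPM) lies above Fe-sufficient replicate 3 (6.96 CPM). The remaining Fe-deficient root values lie below all Fe-sufficient ones. Of the members it alone had an unadjusted root p under 0.05, which overlapping root groups make rare (15.2% of all genes tested had one). It did not pass after adjustment (adjusted p = 0.267 by edgeR, log2 fold change -0.78 ± 0.294, SE).

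The most abundant member in shoots was Potri.004G199400. It had 1731, 1193 and 1323 CPM in the Fe-sufficient shoot replicates and 526, 482 and 678 CPM in the Fe-deficient ones. The mean of 1416 ± 281 CPM (SD, n = 3) dropped to 562 ± 103 CPM (SD, n = 3). On the log2 scale the change was -1.33 ± 0.208 (SE), with an adjusted p of 0.00991 by edgeR. Root levels were 59.3 to 91.2 CPM with Fe and 65.6 to 95.7 CPM without, nearly the same range in both groups.

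By edgeR's quasi-likelihood test 26 of the 29 members passed an adjusted p under 0.05 in shoots, where 0.531% of the 21665 genes tested were called lower. The rule used this contrast, so the count says nothing further about the members. The other 3 members had mean levels of 8.13 to 16.5 CPM and adjusted p-values by edgeR of 0.0518 to 0.0819. The number of members called was 5 without Fe-deficient shoot replicate 1, 5 without Fe-deficient replicate 2, 12 without Fe-deficient replicate 3, 13 without Fe-sufficient replicate 1, 25 without Fe-sufficient replicate 3, and 27 without Fe-sufficient replicate 2. Over these 6 omissions the median log2 fold change of the members was -1.30 to -1.10.

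Reads of all members together made up 1.10%, 0.902% and 0.964% of gene counts in the Fe-sufficient shoot replicates and 0.483%, 0.466% and 0.534% in the Fe-deficient ones. In root libraries the share was 0.0795% to 0.107%. Fewer cells of a type that express these genes and less RNA of them per cell cannot be told apart in such bulk samples.

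In roots no member passed the test. By edgeR 0 of 29 were called, where 0.563% of 23785 genes were called in either direction, and 1 had an unadjusted p under 0.05, as 15.2% of all genes tested did. DESeq2 also called 0 members, and 1109 of the 23785 genes. The rule had removed genes whose root groups do not overlap, so low counts among the members were fixed by their choice and nothing is read from them. Root log2 fold changes of the members ran from -0.80 to 0.69, with a median of 0.07. They were above 0 in 17 members and below 0 in 12, and within 0.5 of 0 in 25.

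**Figure D2:**
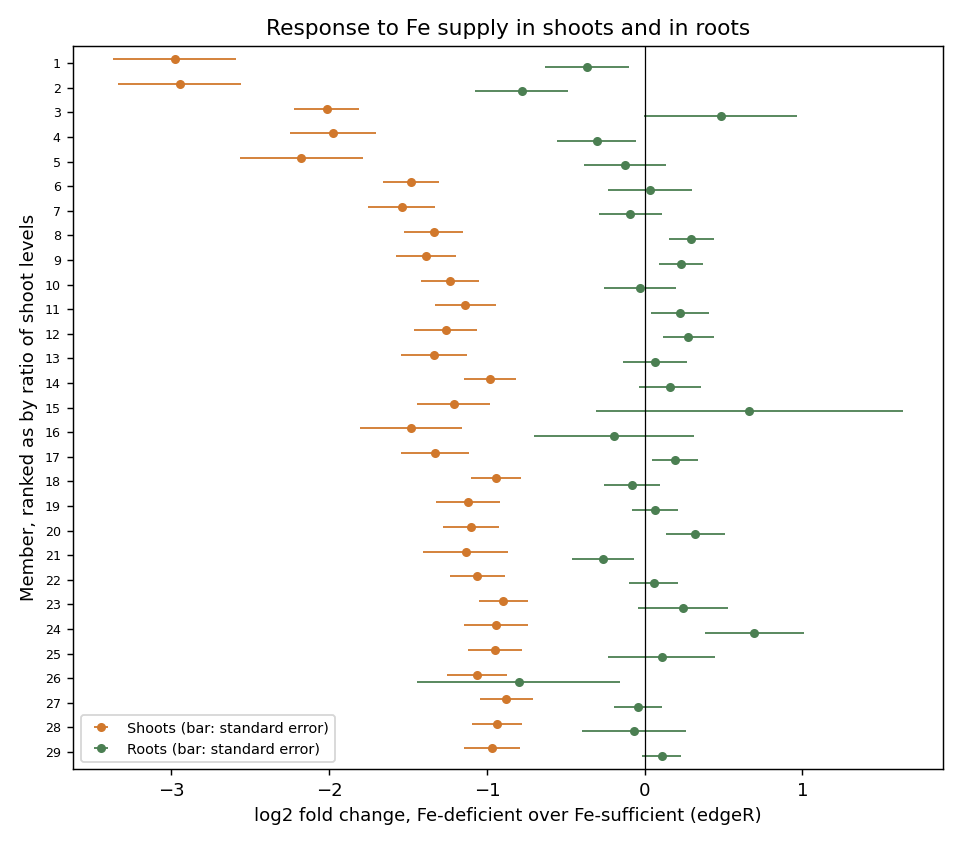
Log2 fold change of Fe-deficient over Fe-sufficient libraries in shoots and in roots for each member, with standard errors from edgeR. Shoot values lie between -2.98 and -0.88, and root values between -0.80 and 0.69.

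Potri.002G127300 had the highest root log2 fold change of the members. Its root level was 79.0, 51.2 and 62.7 CPM with Fe and 108, 59.5 and 144 CPM without. The log2 fold change was 0.69 ± 0.314 (SE; adjusted p = 0.351 by edgeR), and Fe-deficient replicate 2 lies within the Fe-sufficient range. In shoots the same gene had 21.5, 24.4 and 19.3 CPM with Fe and 9.52 to 12.4 CPM without, with an adjusted p of 0.0518 by edgeR.

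Potri.014G155800 had the lowest root log2 fold change, -0.80 ± 0.642 (SE; adjusted p = 0.614 by edgeR). Its root values were 0.957, 2.34 and 6.04 CPM with Fe, and 1.17, 2.50 and 1.69 CPM without. Fe-sufficient root replicate 3 alone, with 59 reads, is the high value. Without that library the root log2 fold change was 0.11. In shoots this gene had 33.6, 41.6 and 41.9 CPM with Fe and 21.9, 15.2 and 19.0 CPM without, and its root response did not pass the test of a difference from its shoot response (log2 difference 0.27 ± 0.649, SE; adjusted p = 0.932 by edgeR).

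The difference between the root and the shoot response was positive (root higher) in all 29 members, with a median of 1.41 on the log2 scale. It passed the threshold in 16 of them, where 0.655% of 25046 genes were called in this direction (edgeR, adjusted p under 0.05). The rule used both responses, so this count is a description and does not show a response limited to shoots. It held 13 of the 16 members at or above 100 CPM and 3 of the 13 below. In place of 16, the number called was 8, 10, 3 and 9 without root Fe-deficient replicates 2 and 3 and root Fe-sufficient replicates 2 and 3. It was 3, 5, 10, 6 and 9 without shoot Fe-deficient replicates 1, 2 and 3 and shoot Fe-sufficient replicates 1 and 3, and 14 without shoot Fe-sufficient replicate 2.

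The rule did not compare shoots with roots, the contrast given here as a mean over both Fe supplies. It did use values of both tissues, through the shoot level window, the separate shoot groups and the overlapping root groups. How far these conditions set the tissue difference of the members was not tested. Most members were more abundant in shoots. By edgeR's quasi-likelihood test on all 12 libraries, 24 of 29 members were higher in shoots, 1 was lower and 4 did not pass. Of all 25046 genes tested 35.6% were called higher in shoots and 37.9% lower. Among genes in the same shoot level window 40.4% were called higher and 32.6% lower. The median log2 difference (shoot minus root) was 3.33 over the members and 0.09 over the window genes.

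The members of 100 CPM or more were all higher in shoots (16 of 16), where 65.0% of the 1605 genes of that level were. Their median log2 difference was 3.62, against 0.85 for genes of that level. At 30 to under 100 CPM it was 3 of 3, against 48.3%, and at 5 to under 30 CPM 5 of 10, against 32.8%. Within each of these ranges, members and window genes were not matched further in level. The members' tissue difference thus moved with their abundance, with a Pearson's r of 0.656 and a Spearman's rho of 0.621 between log2 mean shoot CPM and log2 tissue difference across the 29 genes. Both measures use the shoot libraries, and genes are not independent replicates.

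**Figure D3:**
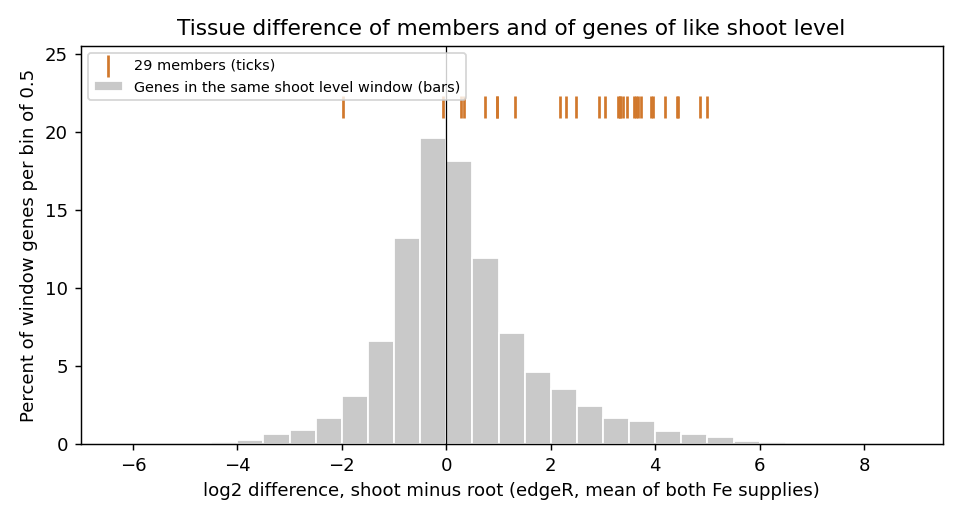
Log2 difference between shoots and roots (mean of both Fe supplies) of the 29 members (ticks) above the distribution of the 16625 genes with a mean shoot level in the same window (bars, percent per bin). The members' median of 3.33 lies to the right of the window genes' median of 0.09.

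Tissue and read assignment cannot be told apart, since shoot and root libraries differed in the share of reads in no gene as given above. With no scaling factors the median of all genes in this contrast lay 0.41 lower on the log2 scale, and 23 members were called higher and 2 lower. Leaving out any 1 of the 12 libraries gave 24 or 25 members higher in shoots and 1 lower. Without Fe-sufficient shoot replicate 2 it was 25.

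Potri.010G089400 had the largest tissue difference, 5.00 ± 0.156 on the log2 scale (SE; adjusted p = 3.71e-12 by edgeR). Scaled over all 12 libraries, its level was 1448, 994 and 1040 CPM in Fe-sufficient and 495, 418 and 548 CPM in Fe-deficient shoots. Roots had 25.4, 20.1 and 18.2 CPM with Fe and 28.3, 24.4 and 25.2 CPM without. All shoot libraries lie above all root libraries by a wide margin, also those without Fe.

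The second largest difference was that of Potri.019G087300, 4.86 ± 0.153 (SE; adjusted p = 3.96e-12 by edgeR). On the same scale it had 1875, 1292 and 1479 CPM in Fe-sufficient shoots and 785, 590 and 772 CPM in Fe-deficient shoots. In roots it had 31.1 to 40.4 CPM with Fe and 32.6 to 39.5 CPM without. The pattern is that of Potri.010G089400, with Fe-sufficient shoot replicate 1 the highest library of both genes.

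The only member called lower in shoots was Potri.002G127300, with a log2 difference of -1.98 ± 0.197 (SE; adjusted p = 6.13e-07 by edgeR). Over all 12 libraries its shoot levels were 22.0 to 28.0 CPM with Fe and 10.9 to 14.4 CPM without, and its root levels 43.9 to 68.6 CPM with Fe and 52.2 to 125 CPM without. All shoot libraries lie below all root libraries, as in 22.0% of window genes. The reverse, all shoots above all roots, was found in 22 members and in 29.9% of window genes, which were not matched to the members in level. The 5 members not called higher in shoots were of low abundance there, with means of 6.74 to 16.5 CPM.

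**Figure D4:**
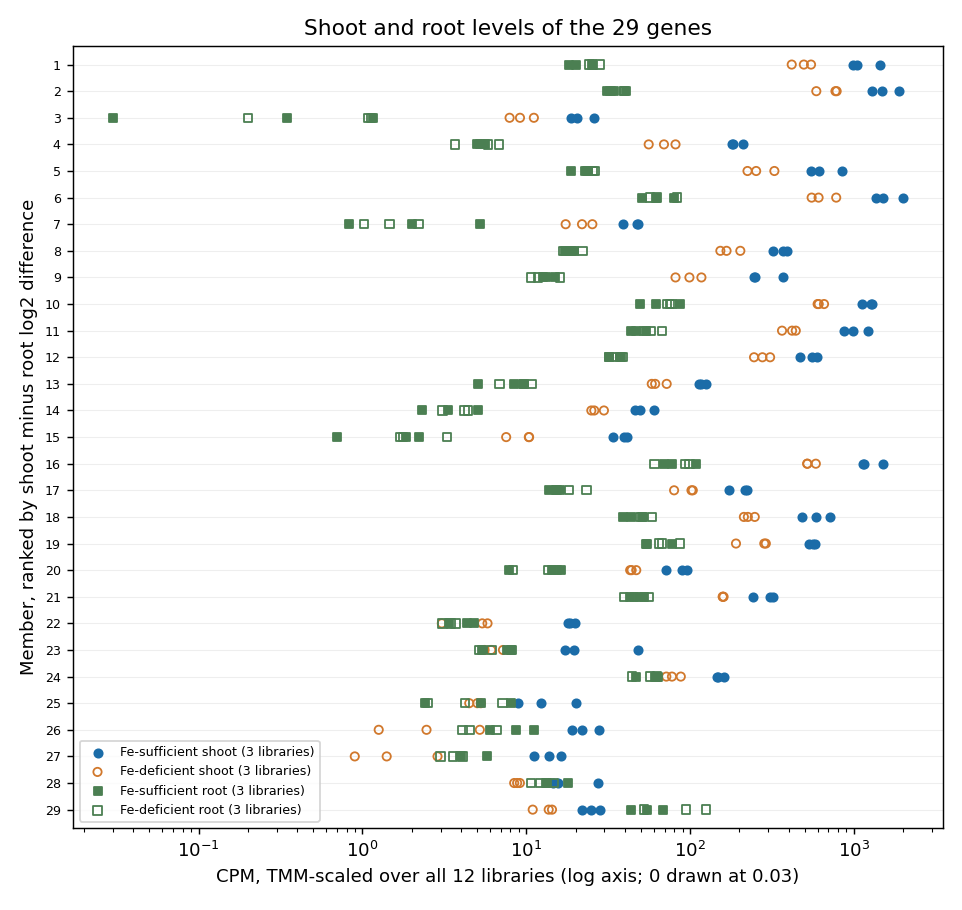
CPM scaled over all 12 libraries (log axis) of each member in shoots (circles) and roots (squares), with Fe (filled) and without (open), ranked by the shoot minus root difference. In the upper ranks both groups of shoot libraries lie to the right of all root libraries, and at rank 29 both lie to the left.

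Most members stayed above their root levels in shoots without Fe. With Fe-deficient libraries alone, 22 members were called higher in shoots than in roots and 2 lower, where 31.3% and 31.6% of all genes tested were (edgeR, adjusted p under 0.05). With Fe-sufficient libraries alone it was 27 and 1, against 31.2% and 32.7%. All 3 Fe-deficient shoot libraries lay above all 6 root libraries in 22 members (75.9%), as in 35.3% of window genes, and below all of them in 3 members (26.6% of window genes), with overlap in the other 4. The 3 Fe-sufficient shoot libraries lay above all root libraries in 27 members, as in 32.5% of window genes. The rule chose genes with high Fe-sufficient shoot values relative to Fe-deficient ones. Both counts of 27 use those values and are descriptions. Window genes were not matched to the members in level: 9.65% of them and 55.2% of the members had at least 100 CPM. The median log2 difference between shoots and roots was 3.90 with Fe and 2.68 without. A smaller difference without Fe follows from the choice of genes that were lower in those shoots.

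The pair of members with the highest ratios did not. Potri.016G098900 had a log2 difference (shoot minus root) of 1.59 ± 0.319 with Fe (SE; adjusted p = 0.000606 by edgeR) and of -1.04 ± 0.380 without Fe (SE; adjusted p = 0.0277 by edgeR). Its Fe-sufficient shoots, at 11.2 to 16.2 CPM, lie above all roots (2.99 to 5.77 CPM), and its Fe-deficient shoots, at 0.898 to 2.87 CPM, below all of them. Potri.012G130600 had differences of 1.42 ± 0.349 with Fe (SE; adjusted p = 0.00268 by edgeR) and -0.76 ± 0.410 without (SE; adjusted p = 0.122 by edgeR). Its Fe-deficient shoot values of 1.26, 2.46 and 5.21 CPM reach into the root range of 4.08 to 11.1 CPM.

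The mirrored rule, for genes raised in Fe-deficient shoots with overlapping roots, was met by 88 genes. Of these, 28 (31.8%) were called higher in shoots than in roots and 43 (48.9%) lower, where 40.4% and 32.6% of window genes were. Their median log2 difference was -0.70. Their median shoot level was 16.2 CPM, and of window genes at 5 to under 30 CPM 32.8% were called higher in shoots. These counts stand beside those of the 29 lowered genes without a test of the difference between the lists. Both lists were chosen on shoot values, and they differ in level.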

How the data were processed

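The deposited files hold raw read counts per gene ID, 1 file per library, made by the authors without normalisation. The tools named in the submitters' processing notes are Trimmomatic 0.36 for reads, the aligner HISAT2 2.0.5, the counter HTSeq 2.2.1 and also edgeR 3.16.5. For genome build, annotation and strand setting, nothing is stated in the sources used here. The 5 rows of reads given to no gene (58.3% to 64.0% of reads listed in roots, 72.6% to 73.1% in shoots) were left out.

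Groups follow the group and tissue labels, not the titles. Root replicates were numbered in accession order. P-values measure only the spread between these libraries, no pair of which agreed within counting noise. Tests were edgeR 4.0.16 (R 4.3.3) quasi-likelihood F tests with robust estimation, TMM and filterByExpr (minimum count 10), with Benjamini-Hochberg adjustment over all genes tested and a threshold of 0.05. Fe was tested within each tissue's 6 libraries, and the tissue contrast and the difference of responses in 1 fit of all 12. Standard errors were derived from the log2 fold change and the F statistic. In simulated shoots the code recovered 52 of 100 changes of 2-fold and 94 of 100 of 4-fold, with 14 false calls of 160. In simulated roots it recovered 37 and 93, with 13 false calls of 143. For the tissue contrast it recovered 81 and 98 (9 false of 188), and for the difference of responses 8 and 71 (1 false of 80). In these simulations all genes but the changed ones had the same mean in every group. In the real tissues 35.6% of genes were called higher in shoots and 37.9% lower. Recovery and false calls under such a difference were not tested.

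The members, lists and tests were chosen with earlier results of these data known. Genes were named as the highest ratios, the highest level, and the extremes of the root and tissue contrasts. Gene lists defined on descriptions could not be applied. Alternatives were DESeq2 1.42.0, RLE or no scaling factors, other filters and thresholds, other fits, a replicate block and leaving out each library.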

Additional observations from a re-analysis of the deposited data

Results flagged for a closer look

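A difference between the root and the shoot response was called in 16 of the 29 members (edgeR, adjusted p under 0.05), where 0.655% of all genes tested were called in this direction. The members were chosen on these same values, so the call is a description and no evidence of a difference. The root response exceeded the shoot response, on the log2 scale, by 2.63 for Potri.016G098900, 1.41 for Potri.004G199400, 1.54 for Potri.010G089400 and 1.19 for Potri.019G087300, values to which the same holds.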

How the results depend on the processing

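The number of genes meeting the rule was 15 with no scaling factors and 7 with a ratio of at least 2, and 22 to 142 when 1 library was left out. Leaving out a shoot library loosens the rule, which compares extremes. Members called lower in shoots numbered 10 at an adjusted p under 0.01, 16 with a replicate block on title numbers, and 5 to 27 when 1 library was left out. They numbered 21 in 1 fit of all 12 libraries and 21 with no scaling factors. DESeq2 called 29 members and 276 of all 21665 genes lower. With no filter on low counts it was 29 members and 218 of 31636 genes. The rule used this contrast. No pairing of shoots is stated by the labels. Deviations of same-numbered libraries correlated at -0.169, -0.0127 and 0.127, and not every library correlated best with its own number. With so few libraries these correlations cannot exclude a pairing. Members called for the difference of responses numbered 2 at an adjusted p under 0.01 and 3 to 15 when 1 library was left out. They numbered 12 with no scaling factors and 23 with DESeq2, which called 478 of all 25046 genes in this direction. Members called lower in shoots than in roots numbered 2 in the Fe-deficient libraries alone and 2 with no scaling factors, an alternative that was added after seeing the data for all but the member count. Members called higher in shoots than in roots numbered 24 to 25 when 1 library was left out. Members called in roots numbered 0 to 0, which the choice of members fixes, so it shows no stability.

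Reversals were found only for values that did not pass the threshold with all libraries. The shoot minus root difference of Potri.016G098900 was -1.04 in Fe-deficient libraries alone (adjusted p = 0.0277 by edgeR), -0.13 with no scaling factors and -0.02 without shoot Fe-deficient replicate 3. For Potri.012G130600 it was -0.757, -0.078 and -0.009 in the same settings. Omitting 1 library at a time gave -0.02 to 0.42 and -0.009 to 0.508 for these genes. The difference of responses of Potri.014G155800 was -0.03 without root Fe-deficient replicate 2 and -0.15 without root Fe-sufficient replicate 1, and its root response 0.11 without root Fe-sufficient replicate 3. Over the omissions these values ran from -0.153 to 1.18 and from -1.22 to 0.11. The cause was not tested. Of 367 values of named genes under alternatives, 300 kept their direction and side of the threshold, 50 lost their call, 8 gained one and 9 reversed. In shoots the fewest reads lie behind the Fe-deficient shoot values of Potri.016G098900, 5 to 16 per library.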

Other observations

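Within the Fe-sufficient shoots, replicate 1 held the highest value in 19 of the 29 members (65.5%), against 27.8% of the genes in the level window. Replicate 2 held the lowest value in 16 members (55.2%, against 38.3%). Within the Fe-deficient shoots, replicate 3 was the highest in 15 members (51.7%, against 29.7%). The members share libraries, are not independent and were chosen on these shoot values, so these shares are descriptions. The window genes were not matched to them in level.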
